A study of Mus musculus with 6 samples.

Results

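The genes described here make, handle and break down retinoic acid, and they were measured in uteri of mice with and without Indian hedgehog (Ihh). Their set holds 10 genes, Adh1, Adh7, Rdh10, Dhrs3, Aldh1a1, Aldh1a2, Aldh1a3, Crabp1, Crabp2 and Cyp26b1, out of 18193 genes with a single-symbol probe set, and 14 of the 45101 probe sets on the array carry 1 of these gene symbols alone. The genes were chosen by their place in the retinoid pathway together with their intensities in the genotype comparison on these 6 arrays. Their values in that comparison are therefore a description, and no test of them is offered. The probe set with the highest mean stands for each gene. All 10 of these were bright enough to enter the genome-wide fit, as were 13 of the 14 probe sets, the exception being a second Adh7 probe set.

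Control uteri came from mice of genotype Ihhf/f, which carry loxP-flanked Ihh alleles. The ablated uteri, Ihhd/d, came from PRcre/+ Ihhf/f mice, in which Cre recombinase is expressed from the progesterone receptor locus and deletes Ihh in cells that have used that locus. The Cre goes with the deletion, so an effect of the Cre itself cannot be told apart from that of losing Ihh. All samples are total uterine RNA from day -1 of an artificial decidual response, in which hormones and a mechanical stimulus stand in for an embryo. The minus sign places that day before the count of the response begins, and the uteri are not described here as stimulated tissue. Each group has 3 samples on Affymetrix Mouse Genome 430 2.0 arrays. The sources used here give no ages or hormone doses and do not say whether each sample was a separate mouse. The p-values therefore reflect spread among the samples as labelled, part or all of which could be technical. The source field names a SmoM2 model for every sample, against the titles and genotypes, and it was not used.

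Retinoic acid is made from retinol (vitamin A) in a pair of oxidations. Retinol dehydrogenases such as Rdh10, and the cytosolic alcohol dehydrogenases Adh1 and Adh7, form retinal, which Dhrs3 can turn back into retinol. The aldehyde dehydrogenases Aldh1a1, Aldh1a2 and Aldh1a3 then oxidise retinal irreversibly to retinoic acid. The small proteins Crabp1 and Crabp2 bind retinoic acid inside the cell, Crabp2 passing it to nuclear retinoic acid receptors, and Cyp26b1 hydroxylates it for disposal. In the endometrium, retinoids are known as regulators of stromal and epithelial differentiation.

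Some arrays stood apart, and this bears on the values that follow. Gli1 and Ptch1, transcripts that report Hedgehog signalling, were lower on every ablated array (log2 differences of -2.53 and -1.65, limma adjusted p = 0.000492 and 0.00146), whereas the Ihh probe set itself read 140.2 to 163.9 in control and 93.3 to 135.4 in ablated uteri (-0.43, adjusted p = 0.164). Ablated replicate 2 carried pancreas transcripts: the summed intensity of 8 measured markers of 10 listed was 75074 there, against 910 to 2829 elsewhere. Adipocyte markers (8 of 10 measured, none at 0) summed to 2481, 5817 and 10222 in control replicates 1, 2 and 3 and to 7732, 12413 and 20117 in ablated replicates 1, 2 and 3. Array medians lay between 121.4 and 142.5 before log2, the highest in control replicate 2.

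Promoters of the genes with the widest gaps between groups are shown first, because they let the reader see how unlike their start regions are. RefSeq promoter sequences of GRCm38.p6, covering 250 bases before to 50 bases after a start, were matched for 7 of the 10 genes. In each line CG dinucleotides are in capitals, and the strand is that of the gene.

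Aldh1a2, chr9:71215539-71215838, plus strand: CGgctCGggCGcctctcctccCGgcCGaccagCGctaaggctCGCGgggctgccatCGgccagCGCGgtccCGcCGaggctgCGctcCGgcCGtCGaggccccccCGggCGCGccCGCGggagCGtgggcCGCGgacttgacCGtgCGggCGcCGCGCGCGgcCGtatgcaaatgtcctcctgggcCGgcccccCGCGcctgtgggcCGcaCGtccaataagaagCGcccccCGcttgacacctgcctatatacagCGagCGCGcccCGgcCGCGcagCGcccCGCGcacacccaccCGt

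Adh1, chr3:138277335-138277634, plus strand: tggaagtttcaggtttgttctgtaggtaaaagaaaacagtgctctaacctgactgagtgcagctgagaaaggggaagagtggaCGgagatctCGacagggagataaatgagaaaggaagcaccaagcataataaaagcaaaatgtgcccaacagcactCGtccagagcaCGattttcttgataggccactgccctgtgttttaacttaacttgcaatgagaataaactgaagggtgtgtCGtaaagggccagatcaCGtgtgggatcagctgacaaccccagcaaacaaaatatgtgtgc

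Aldh1a1, chr19:20601718-20602017, plus strand, the second of 2 listed starts: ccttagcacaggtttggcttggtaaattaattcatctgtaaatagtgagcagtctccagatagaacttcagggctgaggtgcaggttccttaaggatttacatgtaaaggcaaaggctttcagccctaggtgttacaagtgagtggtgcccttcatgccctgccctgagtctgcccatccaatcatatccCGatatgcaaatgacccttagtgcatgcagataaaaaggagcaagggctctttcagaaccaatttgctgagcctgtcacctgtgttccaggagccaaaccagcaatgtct

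Crabp1, chr9:54764498-54764797, plus strand: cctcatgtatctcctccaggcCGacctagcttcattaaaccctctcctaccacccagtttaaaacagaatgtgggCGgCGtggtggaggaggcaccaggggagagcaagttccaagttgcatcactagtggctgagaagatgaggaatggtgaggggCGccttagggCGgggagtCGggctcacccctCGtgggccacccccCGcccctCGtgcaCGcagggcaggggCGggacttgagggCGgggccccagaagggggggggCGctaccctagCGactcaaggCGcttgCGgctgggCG

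The Aldh1a2 promoter is 78.0% G or C and holds 50 CG dinucleotides, against medians of 52.7% and 7 over all 32851 promoters in the table. The Adh1 promoter is 45.3% G or C with 6 CG dinucleotides, and this Aldh1a1 promoter 47.0% with 1. The Crabp1 promoter, that of a gene that read lower without Ihh, is 65.0% G or C with 17 CG dinucleotides and holds 5 copies of the GC box GGGCGG on either strand, a motif present in 35.66% of all promoters. The retinoid receptor half-site was searched on either strand as AGGTCA, and the spelling AGTTCA was allowed too, as were the spelling GGGTCA and likewise the spelling GGTTCA. The 10 promoters searched came from 7 genes, because Aldh1a1 and Dhrs3 have more than 1 listed start, and windows of Dhrs3 overlap. The half-site was found in 2 of these 10 promoters, the Aldh1a1 promoter shown, with its first base 49 bases before the start, and that of Adh7. The other Aldh1a1 promoter held 0. The half-site occurs in 43.71% of all promoters of this length. Direct repeats of that half-site spaced by 1, 2 or 5 bases occur in 0.22%, 0.27% and 0.1% of all promoters and were in 0 of the 10. The TATAAA box, on either strand, was found upstream of Adh7 and Cyp26b1 and occurs in 13.62% of all promoters. The windows are short, and a missing match says only that these letters are not in them.

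Over the set, the enzymes Aldh1a1, Aldh1a2 and Adh1 read higher in Ihh-ablated uteri and the binding protein Crabp1 read lower, while Aldh1a3, Crabp2 and Cyp26b1 overlapped between groups. Of the 10 genes, 7 had groups that did not overlap, 5 higher (Aldh1a1, Aldh1a2, Adh1, Rdh10 and Dhrs3) and 2 lower (Crabp1 and Adh7) in ablated uteri. Among all 15530 genes tested the groups did not overlap for 32.3%, of which 13.3% of genes were higher and 19.0% lower. The number without overlap moved with the scaling, to 9 with median-centred arrays and 8 with quantile normalization, and it was 6 with the mean of a gene's probe sets. At an adjusted p under 0.05 the fit placed 3 of the 10 past the threshold, Aldh1a2 and Adh1 higher and Crabp1 lower, beside 2.81% of all genes (1.28% higher and 1.53% lower). Since these values had a part in choosing the genes, nothing is read from the counts, here or in the settings that follow. The median log2 difference was 0.25 over the 10 genes and -0.04 over all genes tested. Without control replicate 3 the genes past the threshold were 6, with Aldh1a1, Rdh10 and Adh7 added, while the share of all genes also went up, to 12.2%. Without both control replicate 3 and ablated replicate 2 they were 5, all but Adh7, beside 7.37% of all genes. Control replicate 3 was the control nearest the ablated arrays for Aldh1a1 and Rdh10, so leaving it out widens those differences. Ablated replicate 3, with a higher adipocyte marker sum than control replicate 3, was kept in that setting. Without control replicate 1 or without ablated replicate 1 Adh1 dropped out and 2 remained, Aldh1a2 and Crabp1, beside 0.644% and 0.701% of all genes.

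**Figure D1:**
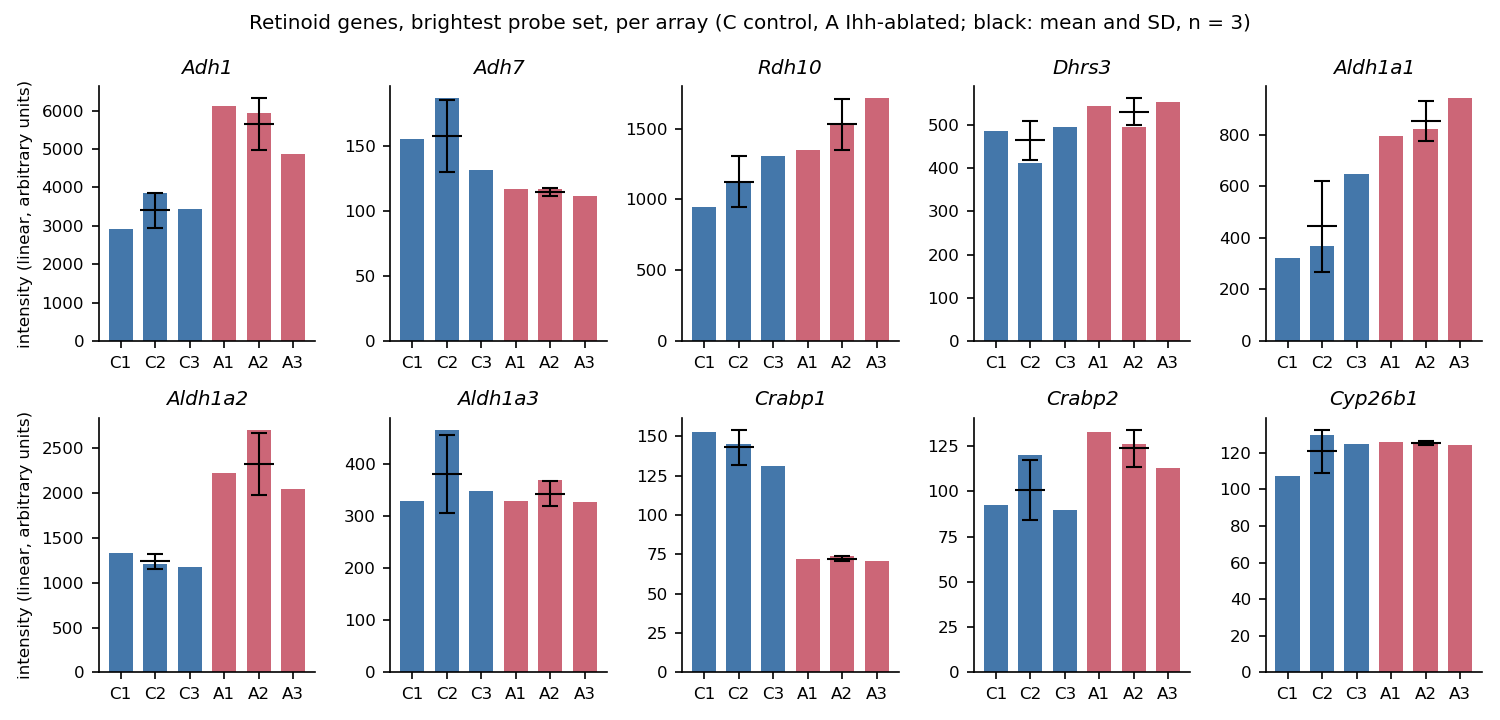
Intensity (linear, arbitrary units) of each gene's brightest probe set on the 3 control (C) and 3 Ihh-ablated (A) arrays, with bars for single arrays and black marks for the group mean and SD. The groups are apart for 7 genes, most clearly for Aldh1a2 and Crabp1, and overlap for Aldh1a3, Crabp2 and Cyp26b1.

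Of the genes for the first oxidation, of retinol to retinal, Adh1, an alcohol dehydrogenase that also acts on ethanol, had the widest gap between groups. It read 2920.2, 3846.3 and 3436.9 in control replicates 1, 2 and 3 and 6124.3, 5940.9 and 4866.4 in the ablated ones. Every ablated array was above every control array, and the lowest ablated array was replicate 3. The group means were 3401 ± 464 and 5644 ± 680 (SD, n = 3 each), a 1.66-fold difference (log2 0.73, SE 0.11). The difference stayed between 0.63 and 0.84 with any 1 array left out.

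Adh7, the alcohol dehydrogenase of epithelial surfaces, lies next to Adh1 on the same chromosome, with 1 annotated gene between them, and read in the opposite direction. Its brighter probe set gave 155.7, 187.1 and 131.9 in control and 117.1, 116.7 and 111.4 in ablated uteri. The ablated arrays were close together and below all controls, the control spread being the larger (158.2 ± 27.7 against 115.1 ± 3.1, log2 -0.45, SE 0.15). The dimmer Adh7 probe set read 22.9 to 49.4 in control and 27.8 to 39.6 in ablated uteri, at the 4.5 percentile, and its groups overlapped. It thus gives no usable second reading of the gene.

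Rdh10, the membrane-bound retinol dehydrogenase that supplies much of the retinal of the embryo, has a pair of probe sets, and both read higher in ablated uteri. The brighter one gave 947.1, 1123.1 and 1307.0 in control and 1352.7, 1523.4 and 1715.8 in ablated replicates 1, 2 and 3. The groups did not overlap, but they nearly touched, control replicate 3 lying just under ablated replicate 1. The means were 1126 ± 180 and 1531 ± 182 (1.37-fold, log2 0.45, SE 0.13). The second probe set read 375.8, 381.4 and 469.4 against 504.3, 549.3 and 656.6, with a log2 difference of 0.48 (SE 0.13), so the probe sets gave the same difference within their errors.

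Dhrs3, which reduces retinal back to retinol and is itself induced by retinoic acid in many cells, read 486.5, 412.6 and 494.8 in control and 543.7, 495.8 and 553.8 in ablated uteri. The groups did not overlap only by a hair, the highest control at 494.8 and the lowest ablated array at 495.8. The log2 difference was 0.20 (SE 0.10), a 1.15-fold one, and it was 0.11 without control replicate 2.

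**Figure D2:**
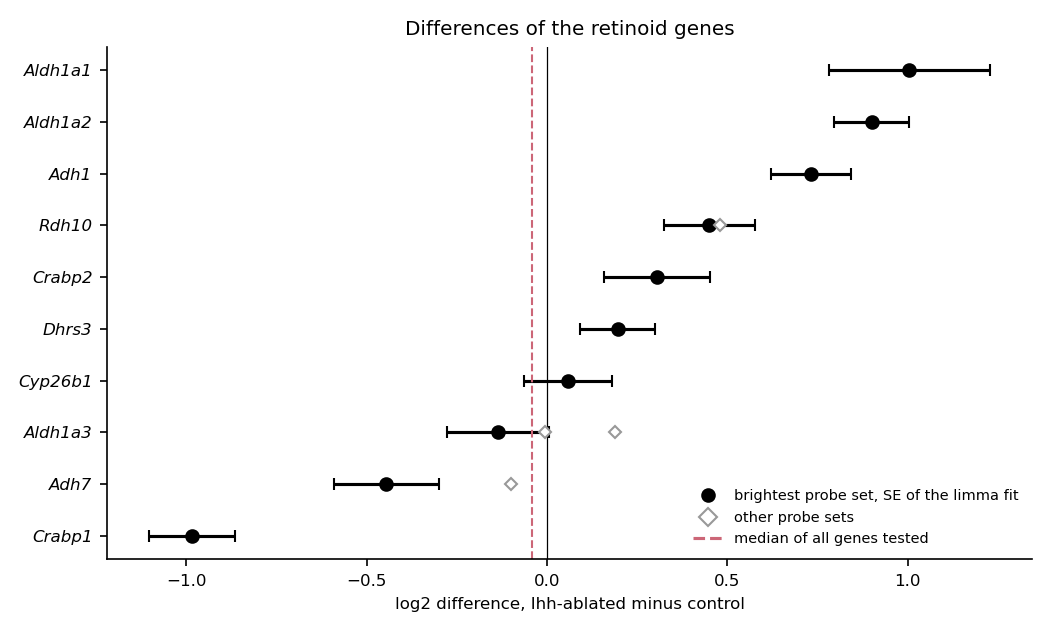
Log2 difference, Ihh-ablated minus control, of the 10 genes, with filled circles and SE bars for the brightest probe set, open diamonds for other probe sets of the same gene, and a dashed line for the median of all genes tested (-0.04). Aldh1a1, Aldh1a2 and Adh1 lie highest (1.00, 0.90 and 0.73) and Crabp1 lowest (-0.98).

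The second oxidation, of retinal to retinoic acid, is run by the Aldh1a enzymes, and they differed among themselves. Aldh1a2 is the enzyme that makes most retinoic acid in the early embryo and is known from mesenchymal cells. It read 1329.8, 1212.4 and 1174.7 in control and 2224.0, 2709.1 and 2043.2 in ablated uteri. The controls were tightly grouped, and the lowest ablated array was well above the highest control. The means were 1239 ± 81 and 2325 ± 344 (1.87-fold, log2 0.90, SE 0.10). Without ablated replicate 2, the array with pancreas transcripts and the highest Aldh1a2 reading, the difference was 0.78, and without control replicate 3 as well it was 0.75.

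Aldh1a1, a retinal dehydrogenase of many epithelia and of adipose tissue, had the largest difference of the set and also the largest error. It read 321.2, 367.8 and 646.6 in control and 797.0, 821.4 and 942.3 in ablated uteri. Control replicate 3 was well above the other 2 controls, yet below every ablated array. The means were 445.2 ± 175.9 and 853.6 ± 77.8 (2.01-fold, log2 1.00, SE 0.22). The difference was 1.31 without control replicate 3 and 0.80 without control replicate 1. Aldh1a7, a close relative of Aldh1a1 in the mouse, read 92.6, 97.3 and 150.3 in control and 173.9, 182.3 and 262.1 in ablated uteri (log2 0.87, SE 0.22, limma adjusted p = 0.0790, which did not pass). Both genes read highest in replicate 3 of either group. Whether their probe sets take up each other's transcript was not tested.

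Aldh1a3, the third enzyme of the family, showed no such separation. Its brightest probe set read 328.2, 465.9 and 347.2 in control and 329.9, 370.1 and 327.8 in ablated uteri, so that replicate 2 was highest in both groups and the ranges overlapped. The log2 difference was -0.14 (SE 0.14), and without control replicate 2 it was 0.02. The other probe sets gave -0.01 (SE 0.15) and 0.19 (SE 0.19), so the sign differed between probe sets of this gene.

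Of the retinoic acid binding proteins, Crabp1 read lower and Crabp2 overlapped. Crabp1 gave 152.9, 145.4 and 131.1 in control and 71.9, 74.0 and 70.9 in ablated uteri. Each ablated array was close to the others and far below the lowest control. The means were 143.1 ± 11.1 and 72.3 ± 1.6 (1.98-fold lower, log2 -0.98, SE 0.12). Ranked on the array, Crabp1 stood at the 27.3 percentile in ablated uteri, against 53.5 in control, and close to the intensity of 71.4 under which probe sets were left out of the fit. No background is stated for these values, so the true size of this difference is unknown. It stayed between -1.05 and -0.93 with any 1 array left out.

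Crabp2, known as an oestrogen-responsive gene of the uterus, read 92.6, 119.9 and 89.9 in control and 132.8, 125.8 and 112.7 in ablated uteri. Control replicate 2 was above ablated replicate 3, so the groups overlapped (100.8 ± 16.6 against 123.8 ± 10.2, log2 0.31, SE 0.15). Without control replicate 2, the array with the highest median, the difference was 0.44, and median-centring of the arrays gave 0.40.

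Cyp26b1, the hydroxylase that clears retinoic acid, read 107.5, 130.0 and 125.1 in control and 126.2, 125.9 and 124.4 in ablated uteri. The ablated values fell inside the control range. The log2 difference was 0.06 (SE 0.12), and it was -0.02 without control replicate 1.

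Transcripts of other tissues moved with some of these genes and not with others. Aldh1a1 and Rdh10 read highest in replicate 3 and lowest in replicate 1 of both groups, as did the adipocyte marker sum. Among the adipocyte markers, Adipoq read 266.2, 906.5 and 1648.6 in control and 1288.2, 2239.6 and 3946.5 in ablated uteri. Slc2a4 and Lep did not follow that order, while the rest of the 8 did. Slc2a4 read 453.0, 558.4 and 475.7 in control and 394.4, 365.0 and 381.5 in ablated uteri (log2 -0.38). Lep differed by -0.01. By limma 0 of these 8 markers passed the test, with 5 higher and 1 lower at an unadjusted p under 0.05, and the sums of both groups overlapped. Aldh1a2 did not follow that order, being lowest in replicate 3 of both groups, nor did Adh1 or Crabp1, which in the ablated group were lowest in replicate 3. The part of adipocyte RNA in the values of Aldh1a1 and Rdh10 was not tested. No share of all genes at an unadjusted p under 0.05 was counted, so nothing is read from unadjusted marker counts, here or below. In whole uterus, more cells of a type and more RNA per cell cannot be told apart.

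**Figure D3:**
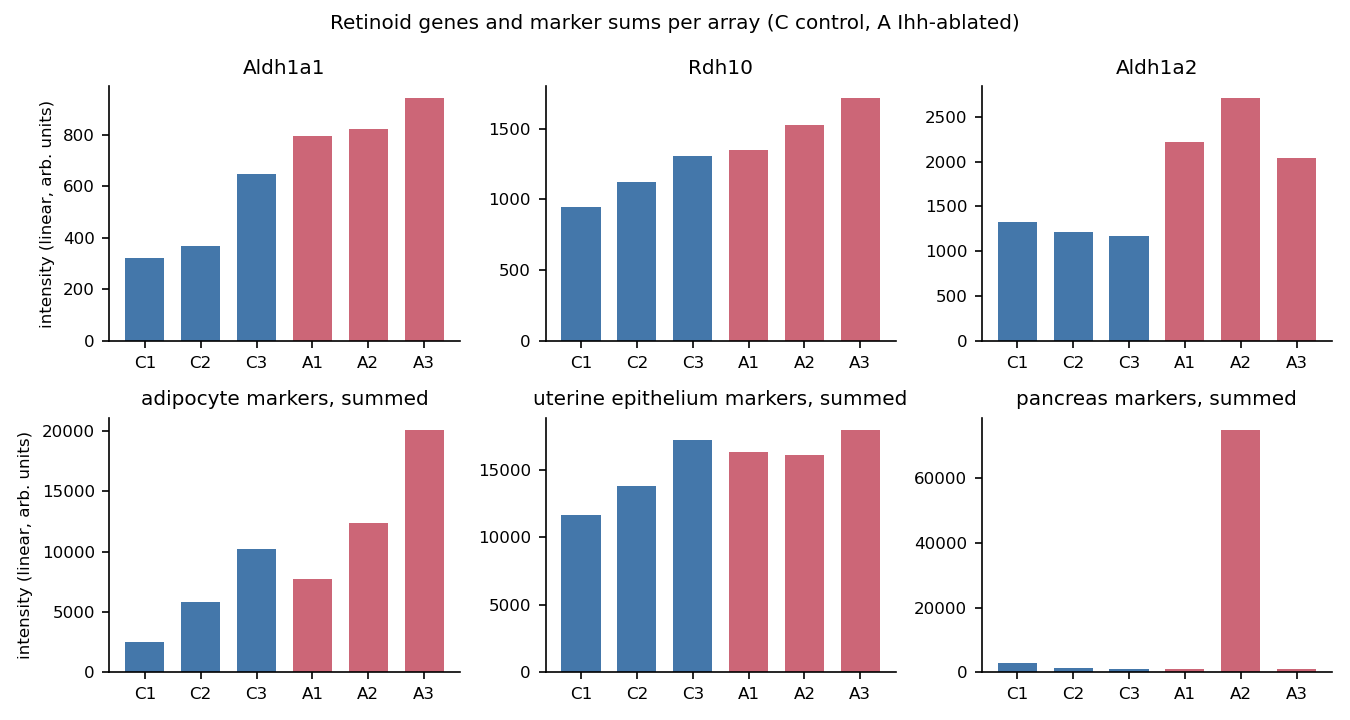
Intensity per array (linear, arbitrary units) of Aldh1a1, Rdh10 and Aldh1a2 and summed intensity of adipocyte, uterine epithelium and pancreas markers, with control arrays (C) in blue and ablated arrays (A) in red. Aldh1a1, Rdh10 and the adipocyte sum are highest in replicate 3 of each group, and the pancreas sum stands out at 75074 in ablated replicate 2.

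Markers of the uterine cell types were set beside the genes in the same way. Uterine epithelium markers (9 of 10 measured) summed to 11663, 13759 and 17191 in control and 16295, 16072 and 17947 in ablated uteri. Control replicate 3 was thus at the ablated level, as it was nearest to it for Aldh1a1 and Rdh10. By limma 0 of the 9 passed (5 higher at an unadjusted p under 0.05). Uterine gland markers (7 measured) summed to 1958 to 2114 in control and 3201 to 4821 in ablated uteri, without overlap, and Cxcl15, Spink1 and Sox9 passed as higher. The sum of 4821 was in ablated replicate 2, the array with pancreas transcripts. Spink1 read 1980.8 there, against 1005.1 and 884.2 in ablated replicates 1 and 3 and 256.3 to 502.1 in control. The part of pancreas RNA in these values was not tested. Oestrogen-induced genes (7 of 8 measured) summed to 2905 to 3804 in control and 5685 to 6418 in ablated uteri, with 5 of 7 higher: Ltf, Greb1, Lcn2, Cxcl15 (also in the gland list) and Aqp5. Of all genes tested, 1.28% passed as higher and 1.53% as lower. The marker lists were chosen with earlier results of these data known, so nothing is read from how many markers passed. Endometrial stroma markers (10 measured) summed to 29546 to 32474 in control and 28471 to 29155 in ablated uteri, without overlap, with Thy1 (-1.44) and Vim (-0.37) lower and Dcn (0.24) higher. Vim read 6090.8 to 7021.5 in control and 4931.8 to 5183.4 in ablated uteri, a wider gap than that between the sums. The separation of the stroma sums therefore needed Vim. Stroma markers that did not pass differed by -0.43 (Hand2) to 0.27 (Pdgfrb). Mesothelium, which is known to express Aldh1a2, gave sums of 1307 to 1514 in control and 1539 to 1607 in ablated uteri, without overlap, over 7 markers, of which 0 passed by limma (1 higher at an unadjusted p under 0.05). That separation needed Wt1, the brightest of the 7, whose own groups overlapped (723.8 to 898.1 in control and 838.0 to 1035.8 in ablated uteri). Without Wt1, a setting chosen after seeing the data, the other 6 summed to 584 to 629 in control and 571 to 727 in ablated uteri and overlapped. Single mesothelium markers differed in direction: Gpm6a read 50.6 to 76.4 in control and 104.3 to 123.0 in ablated uteri (log2 0.77, limma adjusted p = 0.0587), Upk3b differed by 0.29, and Msln by -0.09. Sums overlapped between groups for markers of stratified epithelium (1273 to 1348 and 1280 to 1792), of smooth muscle (53242 to 57248 and 54715 to 54852, with Actg2 lower at a log2 difference of -0.25) and of macrophages and dendritic cells (4188 to 4294 and 4212 to 4896). No marker in any of these lists was at 0. The part of any of these cell types in the retinoid values was not tested.

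The stability of each difference across arrays was read from fits with arrays left out. Aldh1a1, Aldh1a2, Adh1, Rdh10, Dhrs3 and Crabp2 kept a positive difference and Crabp1 and Adh7 a negative one without any 1 array. Aldh1a3 changed sign without control replicate 2 and Cyp26b1 without control replicate 1. Adh7 ranged from -0.57 without control replicate 3 to -0.32 without control replicate 2, and Rdh10 from 0.33 without control replicate 1 to 0.56 without control replicate 3.

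**Figure D4:**
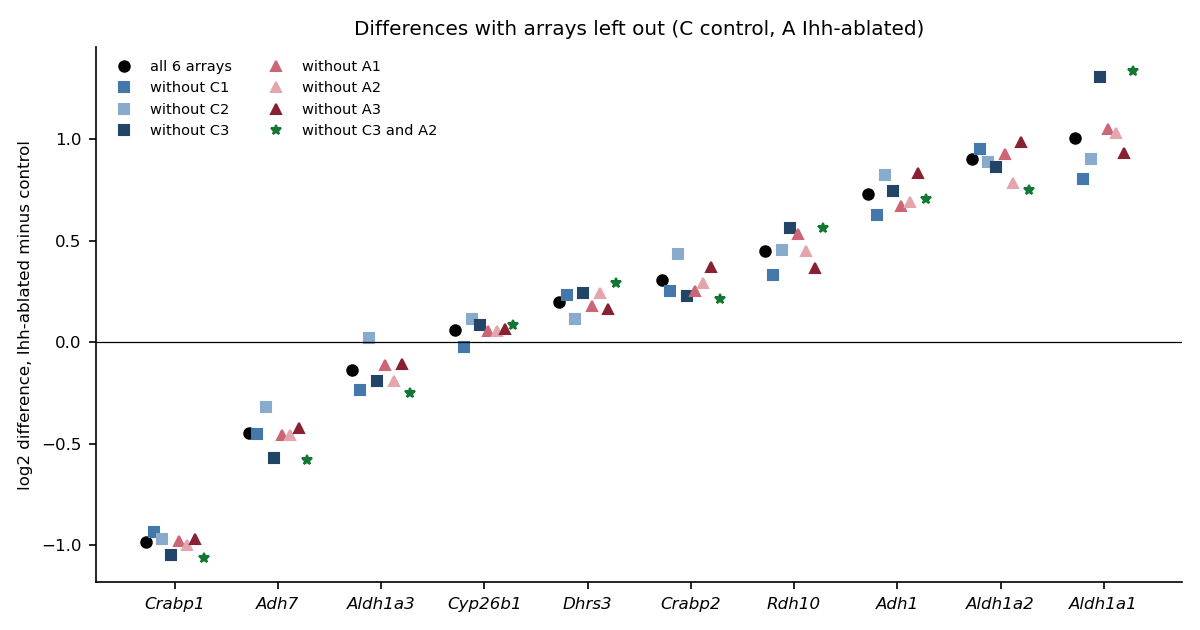
Log2 difference, Ihh-ablated minus control, of the 10 genes with all 6 arrays, without each array and without control replicate 3 and ablated replicate 2 together. Points of Crabp1 and Adh7 stay below 0, and those of Aldh1a1, Aldh1a2, Adh1, Rdh10, Dhrs3 and Crabp2 stay above it. Points of Aldh1a3 and Cyp26b1 lie on both sides.

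The patterns most like that of Aldh1a1, the gene with the largest difference, were sought among 15520 other genes by Pearson's r of log2 intensity over the 6 arrays. The highest were Plek2 (r = 0.998), Fxyd3 (0.996), Mical3 (0.996), Fitm2 (0.996) and Sel1l3 (0.995). Plek2 read 124.9, 134.6 and 171.5 in control and 189.4, 188.9 and 208.0 in ablated uteri, and so shared the high control replicate 3. Its r with Aldh1a1 was 0.994 after group means were removed. These 5 were picked for their likeness out of many genes on few arrays, and r here is a description.

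The rest of the retinoid pathway, taken from lists of genes outside the set, showed a single gene past the test. Over 57 other genes, 51 had a single-symbol probe set and 43 were bright enough to be tested. Of these, 1 was higher, 0 were lower and 42 did not pass by limma, beside 2.81% of all genes, with 8 higher and 2 lower at an unadjusted p under 0.05. Their median log2 difference was -0.03, that of all genes being -0.04. The share of all genes at an unadjusted p under 0.05 was not counted, so nothing is read from the unadjusted counts in any list. The count of genes that passed moved with the arrays used. It was 7 without control replicate 3, with 5 higher (Dgat1, Aldh1a7, Rdh9, Meis1 and Nrip1) and 2 lower (Rdh12 and Ncoa3), beside 12.2% of all genes called in that setting. It was 0 without control replicate 1, control replicate 2, ablated replicate 1 or ablated replicate 3. Without control replicate 3 and ablated replicate 2 together it was 3, Aldh1a7 and Nrip1 higher and Tgm2 lower, beside 7.37% of all genes.

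Among genes of retinol transport and storage, 0 of 10 tested passed by limma (2 higher at an unadjusted p under 0.05, median log2 -0.11). Rbp4, the plasma carrier of retinol, which adipose tissue also makes, read 214.5, 208.3 and 284.7 in control and 201.1, 345.6 and 576.2 in ablated uteri. The groups overlapped widely, and ablated replicate 3, with the highest adipocyte sum, was the highest (log2 0.55, adjusted p = 0.318). Dgat1, which can esterify retinol, differed by 0.49 (adjusted p = 0.145), and Scarb1, a lipid and carotenoid uptake receptor, by 0.45 (0.0989). Stra6, the cell surface receptor for the retinol carrier, read 246.6 to 316.6 in control and 252.1 to 268.3 in ablated uteri.

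Among 13 tested oxidoreductases and hydroxylases outside the set, 0 passed by limma (3 higher at an unadjusted p under 0.05, median -0.01). Aldh1a7, given above, had the largest difference. Rdh12, a retinal reductase best known from the retina, differed by -0.54 (adjusted p = 0.219), with control values from 118.1 to 253.4 and ablated ones from 110.3 to 130.8. Rdh9, a retinol dehydrogenase, differed by 0.45 (0.116). Cyp26a1, a retinoic acid hydroxylase that retinoic acid strongly induces, read 143.7, 176.0 and 138.0 in control and 210.9, 155.3 and 111.7 in ablated uteri, a difference of 0.02 (SE 0.22, adjusted p = 0.957). Its ablated arrays lay on both sides of the controls.

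Among retinoid receptors and their partners, 0 of 10 tested passed by limma (1 higher and 1 lower at an unadjusted p under 0.05, median 0.01). Ncoa3, a nuclear receptor coactivator, read 268.6 to 386.7 in control and 226.4 to 256.1 in ablated uteri (log2 -0.42, adjusted p = 0.144). Fabp5, a lipid carrier that also binds retinoic acid, differed by -0.41 (0.335), and Ncoa2, another coactivator, by 0.25 (0.201). The retinoic acid receptors Rara and Rarg differed by 0.01 (SE 0.13) and -0.11 (SE 0.11). Rxra and Rxrb, their dimer partners, differed by 0.13 (SE 0.10) and 0.14 (SE 0.10). Rarb, a receptor gene directly induced by retinoic acid and named here after its values were seen, was too dim to be tested and read 68.7, 49.6 and 54.8 in control and 80.3, 70.2 and 74.7 in ablated uteri. Its groups did not overlap, at intensities where presence was not shown.

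Among 12 tested retinoic acid target genes, 1 was higher and 0 were lower by limma (2 higher and 1 lower at an unadjusted p under 0.05, median -0.07). The gene was Nrip1, a nuclear receptor corepressor that retinoic acid and oestrogen are both known to induce. It read 659.6, 581.3 and 755.8 in control and 1025.8, 937.7 and 1043.0 in ablated uteri, without overlap (log2 0.60, SE 0.11, adjusted p = 0.0258). Its other 5 probe sets gave log2 differences from -0.29 to 0.46, none past the test (limma adjusted p from 0.114 to 0.813). It passed in 10 of 17 alternatives, with adjusted p between 0.00549 and 0.130, and it lost the call without control replicate 1 (0.105), control replicate 2 (0.0676), ablated replicate 1 (0.109) or ablated replicate 3 (0.106). Hoxa5 (-0.30, adjusted p = 0.283), Rarres1 (-0.27, 0.327) and Hoxb5 (0.25, 0.396) had the next largest differences.

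**Figure D5:**
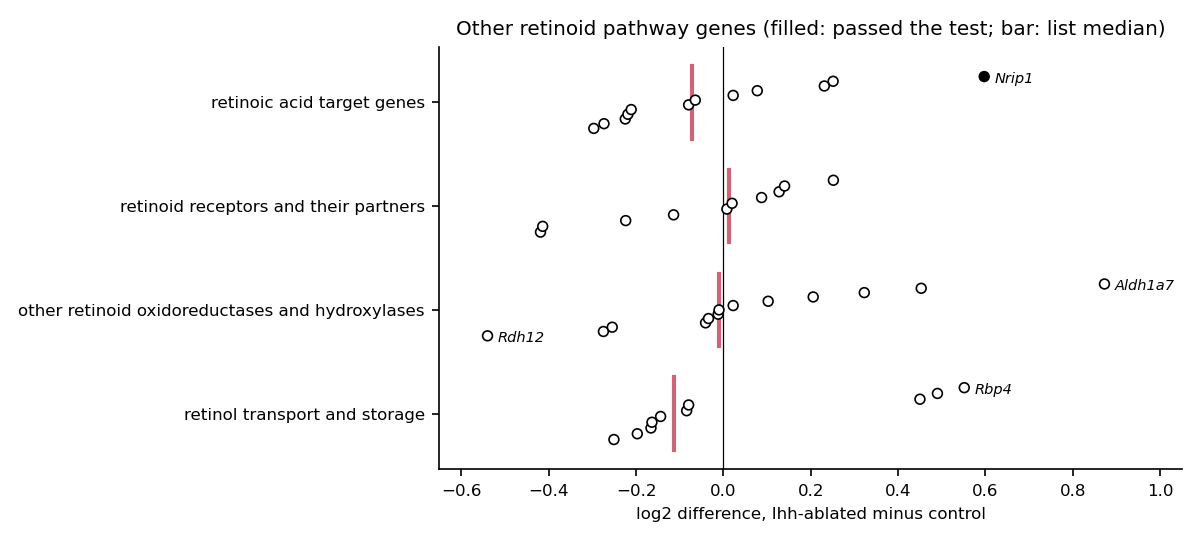
Log2 difference, Ihh-ablated minus control, of tested retinoid pathway genes outside the set, in 4 lists, with 1 point per gene, filled where it passed the test, and a bar for the list median. The point of Nrip1 (0.60) alone is filled, and the list medians lie between -0.11 and 0.01.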

How the data were processed

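The members and gene lists were chosen with earlier results of these data known. Per the labels, biotinylated cRNA of whole uterus was hybridised to 1-colour arrays. The deposited table holds a linear intensity for every probe set, as the authors processed it. How they summarised, background-corrected and normalized it is not given in the sources used here, so dim probe sets have no stated background. Genes were named through the platform annotation (34945 probe sets with 1 symbol, 932 with several, 9160 with none), and 34741 matched RefSeq genes by Entrez identifier. After 64 control probe sets were left out, intensities under 16 were set to 16 and log2 was taken. Array medians differed by at most 0.23, and the authors' normalization was kept. The dimmest 25% were dropped, leaving 33777 probe sets. Genotypes were compared with limma 3.58.1 (lmFit, eBayes with an intensity trend) in R 4.3.3, with Benjamini-Hochberg adjustment over all tested probe sets. On simulated data (33777 probe sets) the fit recovered 100 of 100 set to change 2-fold and 100 of 100 set to change 4-fold, and 13 of its 213 calls were false. The simulated noise was normal and alike on all arrays, and probe sets of like mean intensity were given the same spread. The recovery therefore does not carry over to genes with a larger spread.

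Means and SDs are of linear intensities, while folds and SEs are from the log2 fit. Text names all members, every called pathway gene, the 3 largest uncalled differences per list, Ihh, Gli1 and Ptch1, and 5 genes most like the leading member, with a few further genes chosen after their values were seen. Alternatives changed the normalization, floor, filter, variance model, replicate block, arrays and probe set rule. The 3 arrays per group limit the precision. Of the listed pathway genes, 6 without a single-symbol probe set were not analysed here. Figures were drawn with matplotlib 3.10.9.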

Additional observations from a re-analysis of the deposited data

How the results depend on the processing

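In the fit as reported 437 genes (2.81% of those tested, 724 probe sets), 3 members and 1 other retinoid gene were past the threshold. The counts moved as follows, and nothing is read from those of the members. Leaving out 1 array gave 100 to 1896 genes (0.644% to 12.2%), 148 to 3582 probe sets, 2 to 6 members and 0 to 7 other retinoid genes. Without control replicate 3 and ablated replicate 2 together they were 1144 (7.37%), 1981, 5 and 3. Median-centred arrays gave 266 genes (1.71%) and 0 other retinoid genes. Without an intensity trend there were 226 genes (1.46%), 374 probe sets, 2 members (Adh1 lost) and 0 other retinoid genes. The mean of a gene's probe sets gave 0 other retinoid genes, beside 2.54% of all genes. With the lowest 50% left out 2 members passed, Aldh1a2 and Adh1, since Crabp1 was then too dim to be tested. Of the 11992 genes tested in that setting, 3.49% passed. With the replicate number as a block the counts were 922 genes (5.94%), 1562 probe sets, 5 members (Aldh1a1 and Rdh10 added) and 3 other retinoid genes. Whether the replicate numbers pair the samples was not settled. Deviations of same-numbered arrays correlated at -0.15, -0.04 and 0.25, and those of differently numbered ones at -0.24 to 0.32. With 3 arrays per group such deviations sum to 0 within each group, so they cannot decide it. Causes of the shifts in counts were not tested. With no detection calls, differences of genes near an intensity of 71.4, Crabp1 among them, are limited by the unknown background.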
